A study of Mus musculus with 20 samples.

Results

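The genes of DNA replication described here are 41 genes whose products license origins, unwind and copy DNA, join the lagging strand, supply nucleotides, open S phase or copy DNA methylation onto the new strand. They were taken from a list of gene symbols chosen with earlier results of these data known. The symbols were matched to array probes through the transcript accessions of the probes, with the brightest tested probe standing for a gene. All 41 were found among the 18727 genes tested, and the filter on dim probes removed none of them. Expression was followed in hair follicle stem cells, the long-lived cells of the follicle's bulge that rebuild the follicle in each hair cycle, across 20 Agilent 1-colour arrays.

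All mice were male. The groups were Aged, 24 months old with no diet given in the labels; HFD 3M, fed a high fat diet for 3 months and 5 months old; ND 3M, fed a normal diet for 3 months and 5 months old; HFD 4d, fed a high fat diet for 4 days and 2 months old; and ND 4d, fed a normal diet for 4 days and 2 months old. Each of the 5 conditions had 1 array from anagen, the growth phase of the hair cycle, and 3 arrays from telogen, its resting phase. The labels do not say whether replicates came from separate animals or pools, so the p-values measure only the spread between these samples, which may be technical.

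DNA replication begins when the origin recognition complex, Cdc6 and Cdt1 load the ring of Mcm2 to Mcm7 onto origins in G1. Cyclin E and E2F activity then open S phase, Cdc45 and the GINS complex join the ring to make the active helicase, and polymerase alpha with primase, polymerase delta and polymerase epsilon copy the strands with the sliding clamp Pcna. Bulge stem cells are known for long quiescence in telogen and for dividing when a new follicle grows, and most replication genes are known targets of E2F factors in dividing mammalian cells. In bulk RNA, as here, fewer cells of a type and less RNA per cell cannot be told apart.

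The arrays had 60.7% to 83.49% of their spots well above background, the scanner software's call, with the lowest share on the ND 3M anagen array. No spot was saturated, and the highest correlation between 2 arrays was 0.935. The bulge markers Cd34, Krt15, Lgr5, Sox9, Lhx2 and Nfatc1 were well above background on all 20 arrays, while of the 5 endothelial markers Pecam1 was so on 17 arrays, Emcn on 4, Tek on 3, and Cdh5 and Kdr on 0. Detection alone does not separate cell types here. On all 20 arrays Cd207, Cd74, Cd68 and Itgam of the macrophage and Langerhans list passed too. So did Dct, Pmel and Tyr of the melanocyte list and Cd3e and Thy1 of the T cell list. Col1a2, Col3a1 and Vim of the fibroblast list and Krt1 and Krt10 of the suprabasal list did as well. Others were dimmer, such as Ptprc on 7, Tyrp1 on 8, Cd2 on 10 and Lum on 2 arrays. All 5 anagen arrays lay in column 1 of their slides and all telogen arrays in columns 2 to 4, so phase and slide column cannot be told apart. Of the telogen arrays, replicate 2 of Aged stood highest for the replication genes, with 34 of 41 above the mean of all telogen arrays. The count of anagen calls and the medians of the ageing comparisons are given without it too.

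All levels below are log2 values on which 0 is the 75th percentile of the array. Of the 41 probes, 36 were well above background on all 20 arrays. Orc1 was so on 12 arrays, with 5 of 5 anagen arrays, 7 of 15 telogen arrays and 0 of 3 Aged telogen arrays. Mcm10 passed on 16, Pola2 on 17, and Gins1 and Ccne2 on 19. The brightest members over all arrays were Pcna, Gins3 and Mcm7, and the dimmest were Orc1, Pola2 and Mcm10, a ranking that also holds the probes' own strength and is given only as a description.

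In anagen, 23 of the 41 replication genes rose and 0 fell against telogen, at an adjusted p below 0.05 in limma's moderated test with Benjamini-Hochberg adjustment over all genes. Of all genes tested, 2.81% rose and 3.31% fell, 45.9% of the calls being higher, a share that was 66% when arrays were scaled on their median. The difference was above 0 for 40 of 41 members, with a median of 1.60 on the log2 scale, against a median of -0.16 over all genes. At an unadjusted p below 0.05 there were 37 members, against 22.9% of all genes. The members were chosen with earlier results of these data known, so these shares describe the list and are no separate test. The 23 called genes spanned Orc1 at 5.22 to Pcna at 0.66. The 18 others ran from Ccne2 at 2.36 to Gins3 at -0.47.

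**Figure D1:**
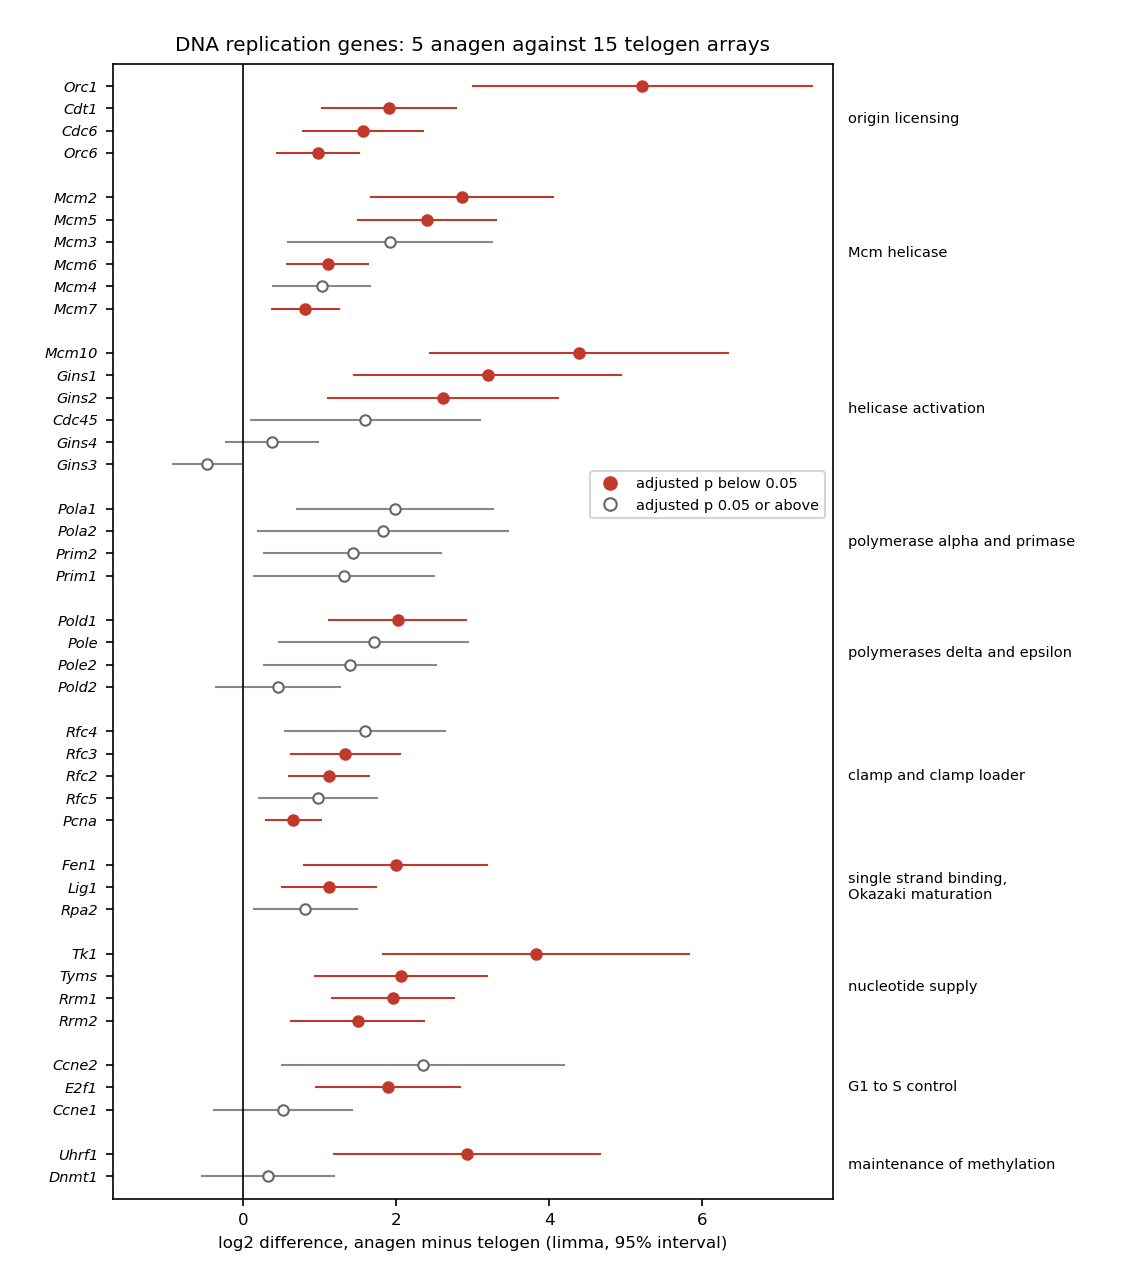
Log2 difference between 5 anagen and 15 telogen arrays for each of 41 replication genes, grouped by role, with points for the estimate and lines for the 95% interval of the limma fit. Red points passed an adjusted p of 0.05 and open points did not, and 40 of the 41 points lie right of 0, with Gins3 alone to the left.

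The start regions of these genes were searched for the letters that E2F factors are known to prefer. The letters were TTTCCCGC, TTTGGCGC, TTTCGCGC and TTTGCCGC, on both strands. The window ran from 250 bases before to 50 bases after each promoter start given in the RefSeq promoter table (build GRCm38.p6). Of the 33 members with an entry, 15 (45.5%) held at least 1 match, against 2.6% of all 27025 genes in the table. Counted per promoter, 15 of 41 entries (36.6%) held a match, against 2.26% of 32851 promoters. Of the 20 called members with an entry 10 held one, and of the 13 that were not called 5 held one. The letters CCAAT, on both strands, stood in 20 of 33 members (60.6%) and in 41.1% of all genes. A match is a description of the letters and not a measured site.

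The 4 promoters shown belong to the members with the largest anagen differences that hold such letters, printed 5′ to 3′ on the gene's own strand with the E2F letters in capitals. Orc1 lies at chr4:108579204-108579503 on the plus strand, Uhrf1 at chr17:56304063-56304362 on the plus strand, Mcm5 at chr8:75109259-75109558 on the plus strand and Pold1 at chr7:44548766-44549065 on the minus strand.
Orc1: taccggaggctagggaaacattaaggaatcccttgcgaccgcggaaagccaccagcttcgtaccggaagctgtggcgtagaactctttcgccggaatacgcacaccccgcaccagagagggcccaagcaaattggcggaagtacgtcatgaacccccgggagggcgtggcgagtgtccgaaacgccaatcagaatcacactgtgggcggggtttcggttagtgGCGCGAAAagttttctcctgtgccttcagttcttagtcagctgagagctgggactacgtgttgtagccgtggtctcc
Uhrf1: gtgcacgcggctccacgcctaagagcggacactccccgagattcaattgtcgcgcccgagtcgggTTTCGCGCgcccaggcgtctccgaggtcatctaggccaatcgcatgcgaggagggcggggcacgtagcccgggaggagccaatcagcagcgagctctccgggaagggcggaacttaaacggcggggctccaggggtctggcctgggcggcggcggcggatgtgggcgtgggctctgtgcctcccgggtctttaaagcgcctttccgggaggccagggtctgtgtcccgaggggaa
Mcm5: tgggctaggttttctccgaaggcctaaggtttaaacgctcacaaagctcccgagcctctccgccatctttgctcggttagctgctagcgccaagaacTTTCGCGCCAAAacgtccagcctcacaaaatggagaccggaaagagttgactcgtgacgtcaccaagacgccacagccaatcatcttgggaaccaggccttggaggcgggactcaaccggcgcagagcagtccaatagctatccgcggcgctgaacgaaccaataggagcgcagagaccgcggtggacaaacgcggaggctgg
Pold1: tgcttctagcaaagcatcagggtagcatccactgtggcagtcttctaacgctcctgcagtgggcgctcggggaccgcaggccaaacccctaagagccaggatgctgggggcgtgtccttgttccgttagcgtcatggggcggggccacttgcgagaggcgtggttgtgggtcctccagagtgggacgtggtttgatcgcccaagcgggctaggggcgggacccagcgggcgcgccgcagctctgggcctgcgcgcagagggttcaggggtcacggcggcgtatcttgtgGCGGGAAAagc
The Orc1 match starts 27 bases before its promoter's start, which lies inside the gene, whose span begins at chr4:108575705. The Uhrf1 match lies upstream of its promoter's start too, in the second of 2 promoters the table gives for that gene. In Mcm5 the capitals join 2 matches, TTTCGCGC on the gene's strand and GCGCCAAA, the reverse complement of TTTGGCGC, which share 4 letters. The Pold1 match starts at base 40 of the transcript. Mcm10 and Tk1, which had larger differences than Uhrf1, held none of these letters in this window.

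The licensing genes Orc1, Cdt1, Cdc6 and Orc6 all rose in anagen, 4 of 4. Orc1, the largest subunit of the origin recognition complex, stood at -0.05 in Aged, -1.93 in HFD 3M, 1.51 in ND 3M, 0.18 in HFD 4d and -0.62 in ND 4d anagen, against -8.01, -5.27 and -0.66 as the lowest, median and highest of 15 telogen arrays. Only the HFD 3M anagen array lay inside the telogen range, under HFD 3M telogen replicate 3 and ND 3M telogen replicate 2. The difference was 5.22 ± 1.05 (SE; adjusted p 0.00739), and it rests in part on 8 telogen values that were not well above background. In Aged cells, where telogen was not well above background on any of 3 arrays, the anagen array was at least 36.2-fold higher, taken against each telogen array's dimmest probe that still passed the background call, or against Orc1 itself where that was brighter. The second probe of Orc1, well above background on 11 arrays, gave 1.61.

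Cdt1, which loads the Mcm ring and is destroyed once S phase starts, stood at 2.08 in Aged, 1.51 in HFD 3M, 2.37 in ND 3M, 2.72 in HFD 4d and 2.30 in ND 4d anagen, against -1.45, 0.62 and 1.51 as the lowest, median and highest in telogen. Each anagen array was above every telogen array, though the HFD 3M one by less than 0.01 from HFD 3M telogen replicate 1. Cdc6, the ATPase that acts beside Cdt1, differed by 1.57 (adjusted p 0.0176) and Orc6 by 0.99 (adjusted p 0.0295).

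Of the 6 subunits of the Mcm ring, Mcm2, Mcm5, Mcm6 and Mcm7 rose and Mcm3 and Mcm4 were not called. Mcm2 stood at -0.65 in Aged, 0.47 in HFD 3M, 1.35 in ND 3M, 1.39 in HFD 4d and 1.95 in ND 4d anagen, against -3.58, -1.73 and -0.29 in telogen as the lowest, median and highest. Mcm5 stood at 2.36 in Aged, 2.42 in HFD 3M, 2.93 in ND 3M, 3.29 in HFD 4d and 2.80 in ND 4d anagen, against -2.0, 0.39 and 1.61 in telogen. For Mcm5 the phases did not overlap, and for Mcm2 the Aged anagen array alone lay inside the telogen range. The differences were 2.86 ± 0.56 for Mcm2 (adjusted p 0.0063) and 2.41 ± 0.42 for Mcm5 (SE; adjusted p 0.00286, the smallest of the 41).

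The ring's members differed in size of change. Mcm6 differed by 1.11 and Mcm7 by 0.82, both among the brightest of the 41. Mcm3 differed by 1.92 (adjusted p 0.0811), and its telogen arrays ran from -2.21 in Aged replicate 1 to 2.95 in Aged replicate 2. All 3 probes of Mcm3 pointed up, at 1.92, 2.99 and 1.69. Mcm4 differed by 1.03 and just missed the threshold, at an adjusted p of 0.0507.

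Of the 6 genes that turn the ring into a helicase, 3 rose. Mcm10, which in yeast and vertebrates is needed to activate the loaded ring, stood at -0.29 in Aged, -0.70 in HFD 3M, -0.83 in ND 3M, 1.14 in HFD 4d and 1.00 in ND 4d anagen, against -7.01, -5.19 and -0.57 in telogen as the lowest, median and highest. The telogen values fell into 11 arrays at -4.29 or lower, HFD 3M replicate 1 at -2.28, and 3 arrays between -0.78 and -0.57 (ND 3M replicate 3 and HFD 4d replicates 1 and 2). Those 3 overlapped the HFD 3M and ND 3M anagen arrays, and the difference was 4.39 ± 0.92 (SE; adjusted p 0.00934).

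The GINS subunits divided. Gins1 stood at -0.08 in Aged, 1.71 in HFD 3M, 0.79 in ND 3M, 1.49 in HFD 4d and 1.76 in ND 4d anagen, against -6.03, -1.47 and 0.75 in telogen, and Gins2 at 2.29 in Aged, 4.32 in HFD 3M, 4.20 in ND 3M, 3.46 in HFD 4d and 3.57 in ND 4d anagen, against -1.71, 0.88 and 4.21. For both the highest telogen array was Aged replicate 2, which lay above the Aged anagen array. For Gins2 this telogen array lay above the ND 3M, HFD 4d and ND 4d anagen arrays too, and under HFD 3M alone. Gins1 rose by 3.20 (adjusted p 0.0299) and Gins2 by 2.62 (adjusted p 0.0387). Gins4 differed by 0.38 (adjusted p 0.428) and Gins3 by -0.47 (adjusted p 0.195), the only member below 0, lying under its own telogen range in 4 of 5 conditions. Cdc45, the third part of the helicase, differed by 1.60 (adjusted p 0.19), and its 2 probes gave 1.60 and 0.60. The 4 GINS proteins work as 1 complex, and the interval for Gins3, -0.91 to -0.03, did not overlap those of Gins1, 1.45 to 4.94, and Gins2, 1.11 to 4.12. These intervals are those of the brightest probes. The second probes gave smaller differences, 2.09 for Gins1, 1.30 for Gins2 and 0.085 for Gins4, and Gins3 had 1 probe.

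Polymerase alpha and primase, which lay down the short primers, gave 0 calls of 4, although all 4 were above 0 and passed an unadjusted p of 0.05. The differences were 1.99 for the catalytic subunit Pola1 (adjusted p 0.0635), 1.83 for Pola2, 1.44 for Prim2 and 1.32 for Prim1. Pola2 stood at -1.78 in Aged, -5.23 in HFD 3M, 0.28 in ND 3M, -2.07 in HFD 4d and -1.64 in ND 4d anagen, against -6.48, -3.60 and -2.0 in telogen. The HFD 3M anagen array was the lowest of the 5 by over 3 log2 units, and it was the 1 anagen array on which Pola2 was not well above background.

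Of the replicative polymerases, Pold1, the catalytic subunit of polymerase delta, rose. It stood at 1.90 in Aged, 0.69 in HFD 3M, 1.32 in ND 3M, 1.93 in HFD 4d and 1.85 in ND 4d anagen, against -2.04, -0.58 and 1.98 in telogen. Its highest telogen value, in Aged replicate 2, lay above all 5 anagen arrays, and the next highest telogen value was 0.58. The difference was 2.03 ± 0.42 (SE; adjusted p 0.00927). Pole, the catalytic subunit of polymerase epsilon, differed by 1.71 (adjusted p 0.0948), its partner Pole2 by 1.40 and the delta subunit Pold2 by 0.46 (adjusted p 0.481).

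The clamp Pcna and 2 of the 4 clamp loader subunits among the members rose. Pcna, the brightest member, stood at 5.22 in Aged, 5.48 in HFD 3M, 5.61 in ND 3M, 5.47 in HFD 4d and 5.62 in ND 4d anagen, against 4.21, 4.79 and 5.26 in telogen. Its difference of 0.66 ± 0.17 (SE; adjusted p 0.028) was the smallest called. Rfc3 differed by 1.34 and Rfc2 by 1.13, each with all anagen arrays above all telogen arrays, while Rfc4 differed by 1.60 (adjusted p 0.0653) and Rfc5 by 0.98 (adjusted p 0.122).

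Of the genes that finish the lagging strand, Fen1, the flap nuclease, and Lig1, the replicative ligase, rose. Fen1 stood at 1.53 in Aged, 1.40 in HFD 3M, 1.95 in ND 3M, 2.04 in HFD 4d and 2.00 in ND 4d anagen, against -2.66, -0.14 and 1.60 in telogen, with the Aged and HFD 3M anagen arrays inside the telogen range. Its difference was 2.00 ± 0.57 (SE; adjusted p 0.0472). Lig1 differed by 1.13 (adjusted p 0.0281), and Rpa2, of the single strand binding complex, by 0.82 (adjusted p 0.139).

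The nucleotide supply genes Tk1, Tyms, Rrm1 and Rrm2 all rose, 4 of 4. Tk1, the thymidine kinase of the salvage pathway, stood at 3.02 in Aged, 2.21 in HFD 3M, 2.83 in ND 3M, 3.34 in HFD 4d and 3.31 in ND 4d anagen, against -4.69, -0.20 and 1.46 in telogen. Tyms, thymidylate synthase, stood at 3.41 in Aged, 3.84 in HFD 3M, 3.85 in ND 3M, 3.62 in HFD 4d and 4.07 in ND 4d anagen, against -0.21, 1.36 and 3.21 in telogen. Rrm1, the large subunit of ribonucleotide reductase, stood at 2.13 in Aged, 2.44 in HFD 3M, 3.20 in ND 3M, 2.65 in HFD 4d and 2.64 in ND 4d anagen, against -0.83, 0.82 and 1.76 in telogen. None of these 3 genes overlapped between phases. Tk1 rose by 3.83 (adjusted p 0.0235), Tyms by 2.07 (adjusted p 0.0284), Rrm1 by 1.96 (adjusted p 0.00533) and Rrm2, the small subunit, by 1.50 (adjusted p 0.0404).

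Among the genes of S phase entry, E2f1 rose by 1.90 (adjusted p 0.0173), whereas Ccne2 differed by 2.36 (adjusted p 0.122) and Ccne1 by 0.53 (adjusted p 0.472). Of the pair that keeps DNA methylation through replication, Uhrf1, which brings the methyltransferase to hemimethylated DNA, rose and Dnmt1 did not pass the test. Uhrf1 stood at 4.68 in Aged, 4.61 in HFD 3M, 4.82 in ND 3M, 5.05 in HFD 4d and 5.21 in ND 4d anagen, against -2.98, 2.22 and 4.32 in telogen, without overlap. Its difference was 2.93 ± 0.82 (SE; adjusted p 0.0453). Dnmt1 differed by 0.33 (adjusted p 0.645), with an interval of -0.53 to 1.19.

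**Figure D2:**
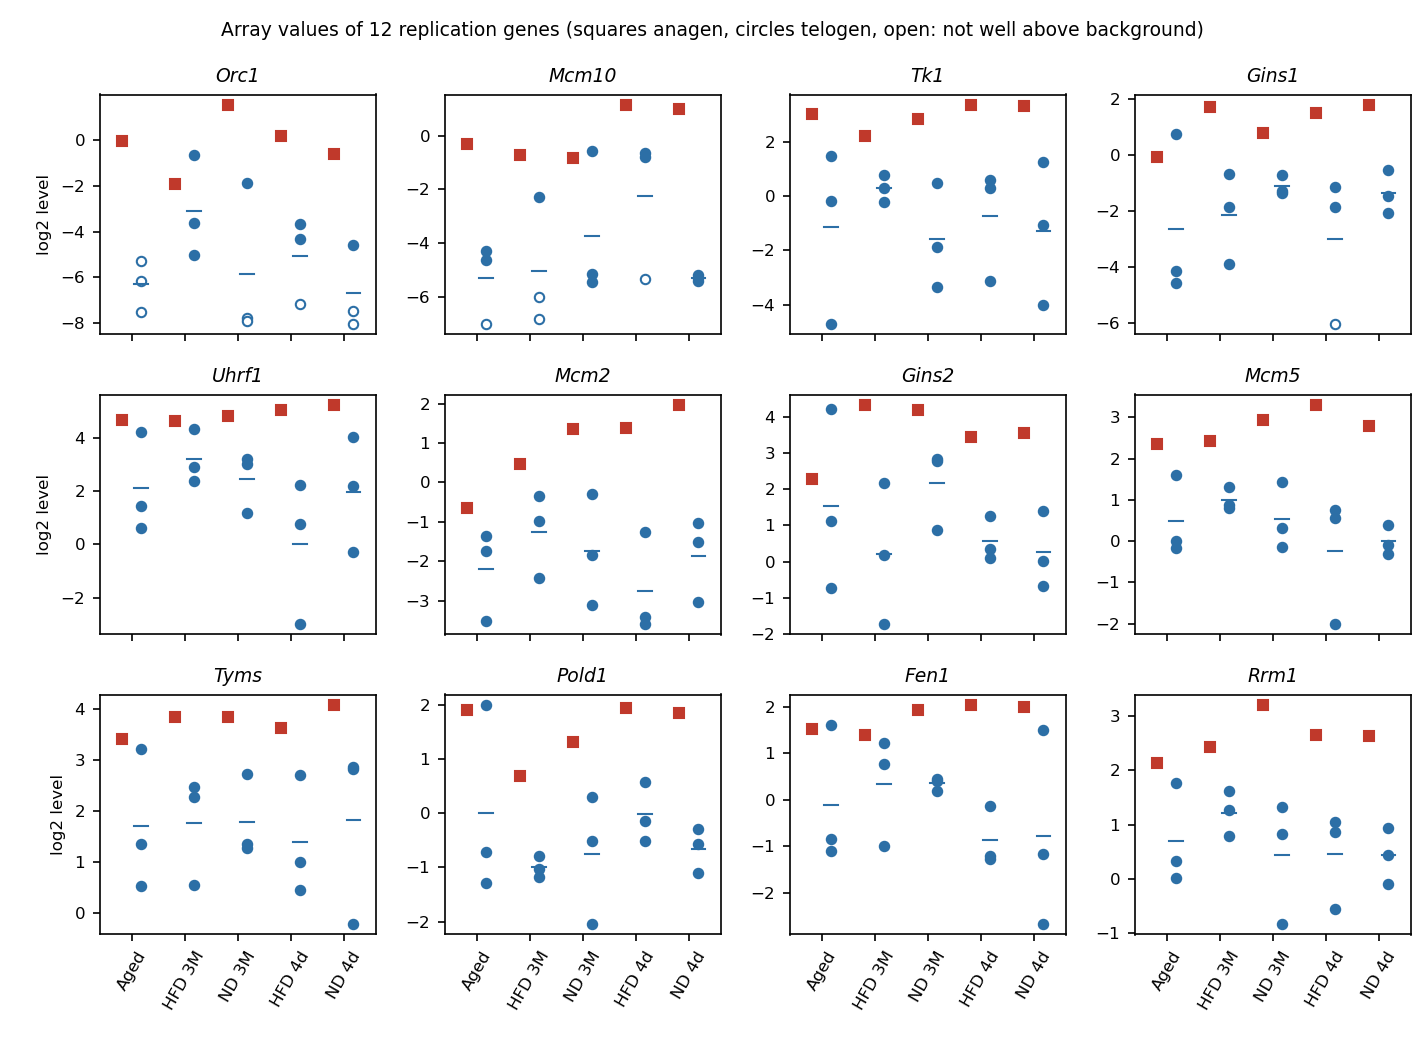
Log2 levels (0 is the array's 75th percentile) of the 12 replication genes with the largest called differences, on every array by condition. Red squares are single anagen arrays, blue circles the 3 telogen arrays with a bar at their mean, and open symbols were not well above background, as in 8 of the 15 telogen arrays for Orc1.

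Separation of the phases was complete for 8 members, Tk1, Uhrf1, Mcm5, Tyms, Rrm1, Cdt1, Rfc3 and Rfc2, whose 5 anagen arrays all lay above the highest of the 15 telogen arrays. Of all genes tested, 0.79% did so. Within conditions the anagen array was above its 3 telogen arrays in 5 of 5 conditions for 14 members, against 2.24% of all genes. The count of members above their telogen range was 23 in Aged, 25 in HFD 3M, 36 in ND 3M, 37 in HFD 4d and 36 in ND 4d. Of all genes, 23.4% were so in Aged, 36.5% in HFD 3M, 22.1% in ND 3M, 23.9% in HFD 4d and 20.9% in ND 4d, so the HFD 3M count stands against a higher background than the others. The median difference over members was 0.88 in Aged, 1.06 in HFD 3M, 1.83 in ND 3M, 2.24 in HFD 4d and 2.05 in ND 4d, each from 1 anagen array with no test. Over all genes the median was -0.16 in Aged, 0.22 in HFD 3M, -0.35 in ND 3M, -0.24 in HFD 4d and -0.22 in ND 4d. The Aged count and median include Aged telogen replicate 2, the highest telogen array for these genes, and were not computed without it.

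The 3 slides were scanned in 3 sessions. The anagen and telogen arrays shared a slide in Aged, ND 3M and ND 4d. In HFD 3M the anagen array lay on slide 2 and the telogen arrays on slide 1, and in HFD 4d the anagen array lay on slide 3 and the telogen arrays on slide 2, so that within these 2 conditions phase cannot be told apart from slide and scan. Within slides the median difference over members was 1.68, 1.52 and 1.40, with 39, 39 and 40 of 41 above 0. All 23 called members were above 0 on each slide, but they were called on these same arrays, so this is no separate test. The differences within slides also mix conditions. On slide 3 the HFD 4d and Aged anagen arrays were set against Aged telogen alone. With slide as a block the median was 1.74 and 6 members stayed called, Mcm2, Mcm5, Mcm6, Orc1, Cdt1 and Rrm1, where 1.11% of all genes were called higher. The count rests on the single anagen arrays too. It was 7 without ND 3M, 7 without HFD 4d, 8 without ND 4d, 16 without Aged and 24 without HFD 3M, with medians of 1.44 to 1.74, and it was 26 without Aged telogen replicate 2. The calls over all 18727 genes moved too. In the same order 218, 211, 238, 312, 658 and 594 genes were called higher, against 526 with all arrays. Mcm2, Mcm5, Rrm1 and Orc1 were called under each of the alternatives in which they were tested.

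**Figure D3:**
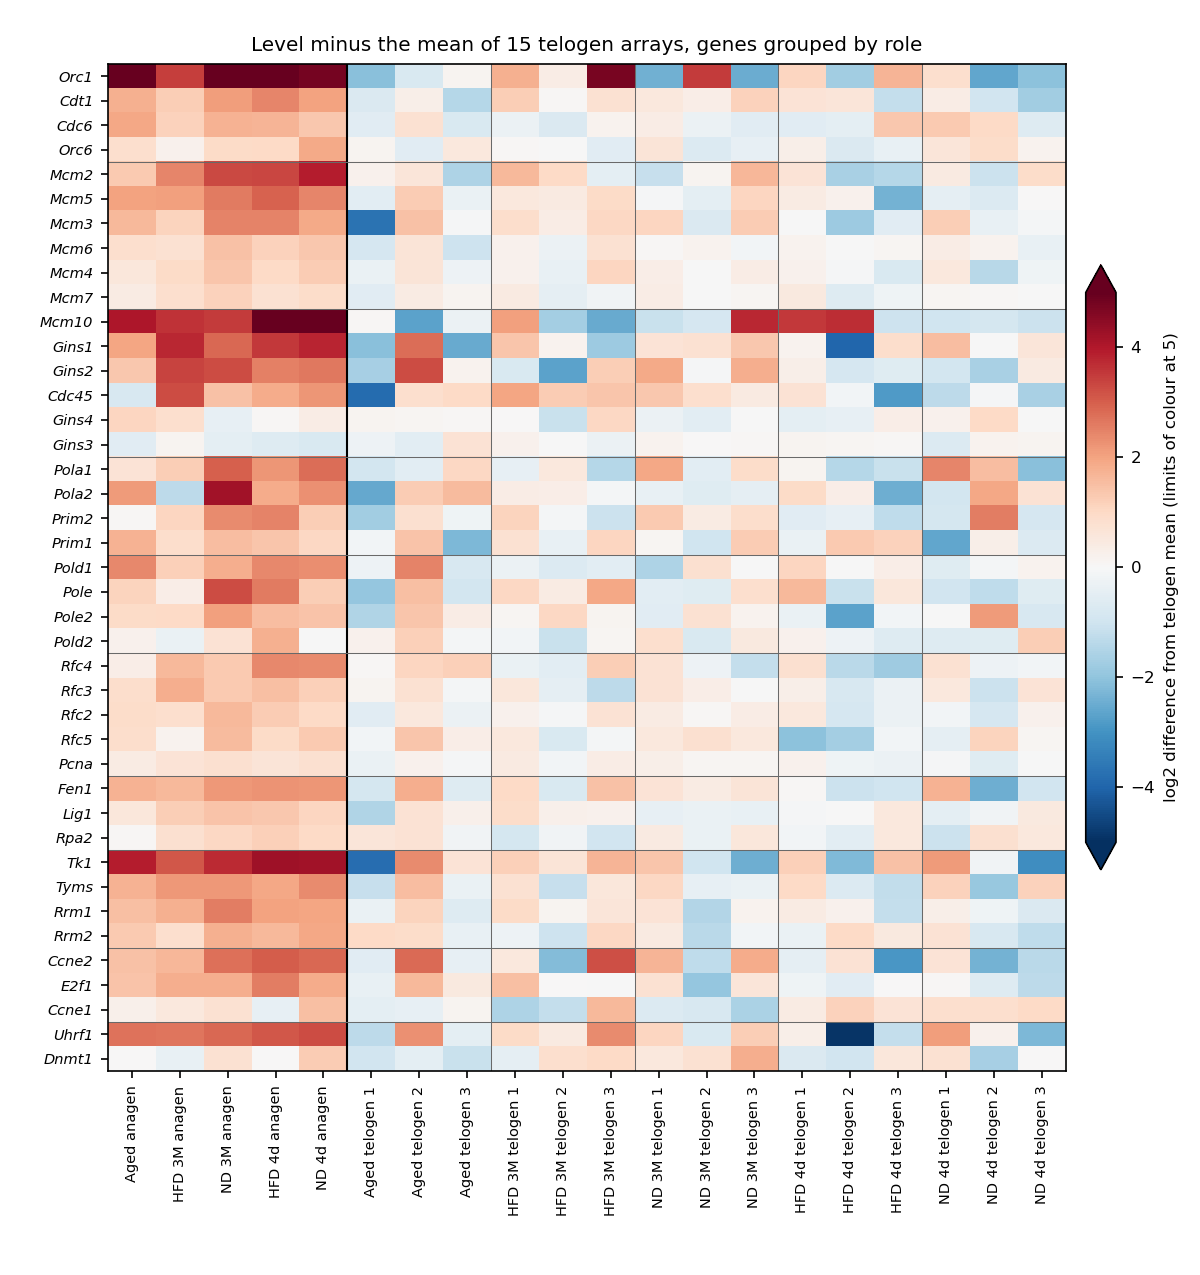
Level of each of 41 replication genes on each array minus the gene's mean over the 15 telogen arrays, in log2 units, with rows grouped by role and the 5 anagen arrays at the left. The anagen columns are red in nearly all rows, and among telogen columns Aged replicate 2 has 34 of 41 genes above the telogen mean.

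Genes of the same processes outside the 41 were read from lists chosen with earlier results of these data known. Of 11 other subunits of the same complexes, 1 rose in anagen, Rpa1 at 1.15 (adjusted p 0.0281), and the median was 0.50. Rpa3 differed by 0.73 (adjusted p 0.0517), Orc2 by 1.24 (adjusted p 0.155) and Rfc1 by 0.98 (adjusted p 0.16), while Orc3, Orc4, Pole3 and Pold4 lay below 0. Of 23 other replication and fork genes 4 rose, with a list median of 1.11. They were Dbf4, the regulatory partner of the Cdc7 kinase that fires origins, at 3.98, Ticrr, which helps load Cdc45, at 3.24, Dscc1 at 4.18 and Dtl, which directs Cdt1 to destruction, at 4.30. They were well above background on 19, 17, 15 and 14 of 20 arrays, so these sizes rest in part on dim values.

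Of 13 chromatin assembly and nucleotide genes 5 rose, with a median of 1.17, among them the remodeller Hells at 3.72, the histone chaperones Asf1b at 1.91 and Chaf1b at 1.54, and the dUTPase Dut at 0.80. Of 30 regulators of the G1 to S step 5 rose and 1 fell, with a median of 0.93. E2f3 rose by 4.37, Cks1b by 0.95 and Cdk4 by 0.73, and Cdkn1c, an inhibitor of cyclin-dependent kinases, fell by 5.83 (adjusted p 0.000804). The size of that difference is uncertain, since Cdkn1c was well above background on 16 of 20 arrays and differed by -0.95 in ND 4d, against -5.79 to -8.51 in the other conditions. Ccnd1 differed by 0.11 (adjusted p 0.744) and Cdkn1b by -0.34 (adjusted p 0.424). The 20 mitotic genes gave 18 calls, all higher, with a median of 3.31, and the smallest p belonged to Cenpe at 4.13, Cdc20 at 1.93, Ccnb2 at 3.10 and Bub1 at 4.90, the last well above background on only 9 of 20 arrays. Mki67 rose by 3.16 and Top2a by 3.45.

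Markers of cell types moved with the phase as well, and their part in the replication genes' difference was not tested. Of 10 bulge markers 3 fell in anagen, Cd34 by 2.19, Krt15 by 0.81 and Col17a1 by 0.72, while Lgr5 differed by -0.19 (adjusted p 0.598). Their summed linear signal ran from 204 to 295 in anagen and from 258 to 454 in telogen. Of the hair matrix and transit amplifying markers 7 of 8 were tested and 0 were called by limma, 2 passing an unadjusted p of 0.05, with sums of 5.25 to 10.3 in anagen and 6.07 to 16.4 in telogen. Shh was well above background on 1 of 5 anagen arrays, and Lef1 on 2. Of 5 tested suprabasal markers Krt1 rose by 1.26, and the sums were 79.05 to 118.2 in anagen and 31.42 to 118.2 in telogen. Of the fibroblast list and of the red blood cell list 1 gene each fell, and 0 genes were called in the sebocyte, macrophage, T cell, endothelial and melanocyte lists, where 2 sebocyte genes and 0 of the others had an unadjusted p below 0.05.

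Between telogen arrays of the same group the replication genes varied widely. Their pooled SD within telogen groups had a median of 0.94, against 0.67 over all genes, and 33 of 41 lay above the median of genes in the same 1 of 10 equal bins of level. The largest were Tk1 at 2.25, Orc1 at 2.23 and Mcm10 at 2.14, and the smallest were Pcna at 0.28, Gins3 at 0.38 and Mcm7 at 0.41. Tk1 is an example. Its spread rests in part on dim values, the lowest of which, -4.69, lay near the floor of -5.23 used for Orc1 in Aged telogen. Tk1 stood at -4.69, 1.46 and -0.20 in Aged, 0.29, -0.24 and 0.79 in HFD 3M, 0.50, -1.87 and -3.34 in ND 3M, 0.31, -3.11 and 0.58 in HFD 4d, and 1.24, -1.05 and -3.99 in ND 4d telogen, in the order of replicates 1 to 3, and was well above background on all 15 arrays.

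Gins3 stood at 4.80, 4.55 and 5.79 in Aged, 5.28, 5.05 and 4.76 in HFD 3M, 5.26, 5.07 and 5.13 in ND 3M, 5.20, 5.15 and 5.13 in HFD 4d, and 4.39, 5.25 and 5.19 in ND 4d telogen. Mcm7 stood at 3.09, 4.06 and 3.77 in Aged, 4.10, 3.19 and 3.46 in HFD 3M, 3.99, 3.60 and 3.72 in ND 3M, 4.14, 2.97 and 3.43 in HFD 4d, and 3.73, 3.70 and 3.61 in ND 4d telogen. In each of the 5 telogen groups both genes spanned a narrower range than Tk1. In anagen the SD over the 5 arrays was below the pooled telogen SD for 36 of 41 members, although those 5 arrays came from 5 conditions, against 49.7% of all genes. The median anagen SD was 0.46 over members and 0.65 over all genes. The spread also changes with level. Over all genes the pooled telogen SD had a median of 0.72 in bin 1 of the 10 bins of level, 0.96 in bin 5 and 0.30 in bin 10. Of the members, 40 of 41 stood higher in anagen, and the part of level in their lower anagen SD was not tested.

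**Figure D4:**
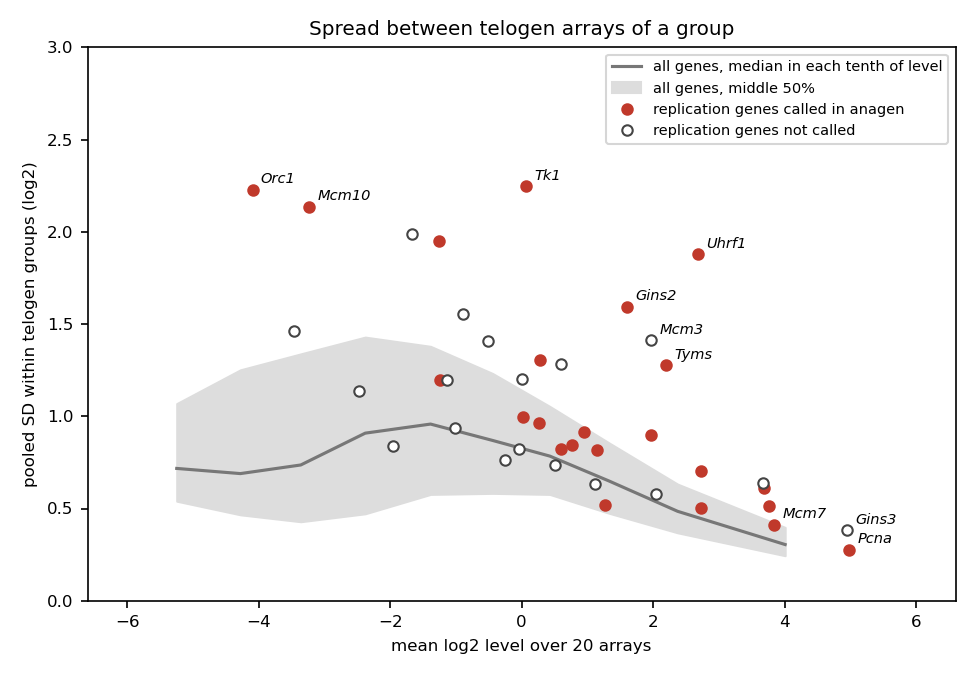
Pooled SD within the 5 telogen groups against the mean log2 level over 20 arrays, with 1 point for each of 41 replication genes, red where called in anagen and open where not. The grey line is the median and the band the middle 50% of all genes in each of 10 equal bins of level, and Tk1, Uhrf1, Gins2, Mcm3 and Tyms lie above the band at levels where other genes varied less.

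The members moved together in part. The 820 pairs of members had a median correlation of 0.48 over the 20 arrays, which holds the phase difference, and of 0.22 over the 15 telogen arrays after group means were taken off, as a description over arrays that share scaling. In telogen the members closest to the mean of the others were Mcm3 at 0.87, Pole at 0.84 and Mcm7 at 0.81, and the farthest was Gins3 at -0.32. As a score of each array, the median deviation of the 41 genes from their telogen means was -0.56, 0.86 and -0.17 for Aged, 0.51, -0.09 and 0.62 for HFD 3M, 0.45, -0.28 and 0.38 for ND 3M, 0.22, -0.55 and -0.30 for HFD 4d, and 0.29, -0.21 and -0.10 for ND 4d telogen. The 20 mitotic genes scored -1.31, 0.84 and -0.73 for Aged, 1.74, 0.12 and 1.11 for HFD 3M, 1.26, -0.81 and 1.36 for ND 3M, 1.00, -2.06 and -1.04 for HFD 4d, and 0.57, -1.18 and -0.19 for ND 4d. In each of the 5 groups the array lowest for replication genes was also the lowest for mitotic genes.

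**Figure D5:**
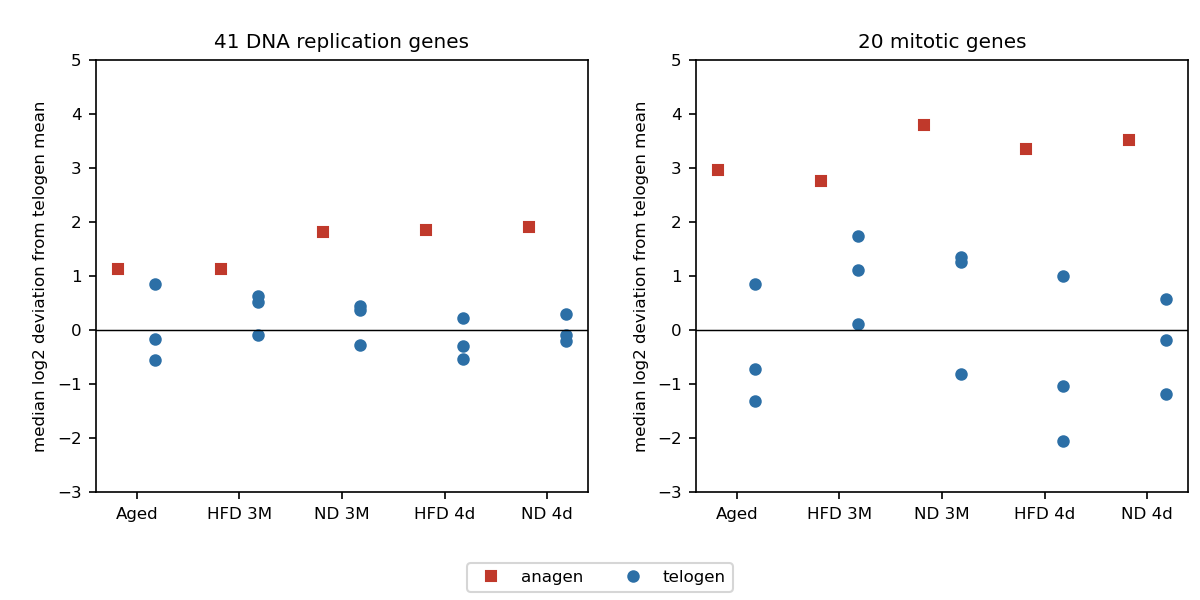
Median log2 deviation from the telogen mean over 41 replication genes (left) and 20 mitotic genes (right), for each array by condition. Red squares are the anagen arrays, between 1.13 and 1.91 for replication genes, and blue circles the telogen arrays, between -0.56 and 0.86.

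High fat diet was compared with normal diet in telogen at both durations, with the diets of a duration in different rows of 1 slide, which leaves diet and slide row inseparable here. After 3 months 0 of 41 replication genes were called by limma, 0 had an unadjusted p below 0.05, where 3.9% of all genes did, and 0% of all genes were called. The median over members was 0.06, with 23 above 0 and 18 below, and the typical 95% interval of a member reached 1.56 log2 units to either side. Lig1 and Pola2 were higher in HFD 3M without overlap, 2 of 41, where 9.85% of all genes did not overlap. Lig1 stood at 4.33, 3.65 and 3.63 in HFD 3M, against 2.99, 3.05 and 3.02 in ND 3M, a difference of 0.85 (adjusted p 0.9995). Rpa2 stood at 0.01, 0.75 and -0.06 in HFD 3M, against 1.35, 0.59 and 1.47 in ND 3M, and Orc1 at -3.63, -5.01 and -0.66 in HFD 3M, against -7.78, -1.89 and -7.89 in ND 3M. Both overlapped, with differences of -0.90 for Rpa2 and 2.75 for Orc1, which was not well above background on 2 of the 3 ND 3M arrays, so its size is uncertain.

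After 4 days 0 of 41 were called, 1 had an unadjusted p below 0.05, where 4.36% of all genes did, and 0% of all genes were called. The median was -0.09, and 0 members were free of overlap, against 9.7% of all genes. Rfc5, the smallest p, stood at -1.79, -1.42 and 0.13 in HFD 4d, against -0.17, 1.36 and 0.35 in ND 4d, a difference of -1.54 (adjusted p 0.9997). Mcm10 stood at -0.78, -0.64 and -5.35 in HFD 4d, against -5.32, -5.19 and -5.41 in ND 4d, where 2 of the 3 HFD arrays lay far above the rest. Orc6 stood at 1.32, 0.27 and 0.66 in HFD 4d, against 1.61, 1.92 and 1.18 in ND 4d.

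Averaged over both durations, 0 of 41 were called, 1 had an unadjusted p below 0.05, where 4.29% of all genes did, and 0% of all genes were called. The smallest p belonged to Rfc5, with a difference of -1.13 (95% interval -2.02 to -0.25, adjusted p 0.9999), and next came Pole at 1.27 and Orc1 at 2.19. For Orc1 the background call failed on 4 of the 6 ND arrays and, among HFD arrays, on HFD 4d replicate 2. Pole stood at -1.85, -2.48 and -0.96 in HFD 3M, -3.43, -3.51 and -2.07 in ND 3M, -1.26, -4.02 and -2.32 in HFD 4d, and -3.85, -4.18 and -3.49 in ND 4d. The test of whether the diet difference itself changed with duration called 0 of 41 and 0% of all genes. An unadjusted p below 0.05 was found for 0 members and for 3.74% of all genes, and the smallest p were those of Mcm10 at -4.37, Pole2 at 1.78 and Uhrf1 at 2.70. Mcm10 was not well above background on 2 of 3 HFD 3M arrays and 1 of 3 HFD 4d arrays, so its size is uncertain. Uhrf1 stood at 2.89, 2.39 and 4.32 in HFD 3M, 3.00, 1.19 and 3.19 in ND 3M, 2.22, -2.98 and 0.77 in HFD 4d, and 4.03, 2.17 and -0.30 in ND 4d telogen, so that a single HFD 4d array held the lowest value. Pole2 was likewise lowest in HFD 4d replicate 2, at -3.03, the others lying between -1.84 and 1.79.

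Ageing was compared in telogen with both normal diet groups, which lay on other slides than Aged, so that age cannot be told apart from slide and scan. Against ND 3M, 0 of 41 were called, 1 had an unadjusted p below 0.05, where 11.9% of all genes did, and 0.0641% of all genes were called. The median was -0.13, with 28 members below 0, and it was -0.61 without Aged telogen replicate 2 and 0.16 without Aged telogen replicate 1. Without overlap Gins4 and Ccne1 were higher and Cdt1 and Dnmt1 lower in Aged, 4 of 41 or 9.76%, where 18% of all genes did not overlap. Dnmt1 stood at -1.07, -0.61 and -1.23 in Aged, against 0.39, 0.63 and 1.70 in ND 3M, a difference of -1.88 (95% interval -3.26 to -0.49, adjusted p 0.305). Cdt1 stood at -0.42, 0.58 and -1.15 in Aged, against 0.81, 0.62 and 1.43 in ND 3M, and Rfc4 at -1.34, -0.35 and -0.24 in Aged, against -0.70, -1.67 and -2.59 in ND 3M.

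Against ND 4d, 0 of 41 were called in Aged telogen, 0 had an unadjusted p below 0.05, where 7.85% of all genes did, and 0.0374% of all genes were called. The median was 0.15, and it was -0.26 without Aged telogen replicate 2 and 0.46 without Aged telogen replicate 1. Ccne1 alone did not overlap, where 10.5% of all genes did not, at -2.58, -2.48 and -1.93 in Aged, against -1.24, -1.24 and -1.10 in ND 4d. E2f1 stood at -0.59, 1.43 and 0.29 in Aged, against -0.13, -0.86 and -1.53 in ND 4d, and Rrm2 at 2.60, 2.49 and 1.20 in Aged, against 2.30, 0.81 and 0.33 in ND 4d. In both the groups overlapped.

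Between the normal diet groups, ND 3M at 5 months against ND 4d at 2 months, 0 of 41 were called, 2 had an unadjusted p below 0.05, where 11.8% of all genes did, and 0.016% of all genes were called. The ND 3M telogen arrays lay on slide 1 and the ND 4d telogen arrays on slide 2, so age cannot be told apart from slide and scan here either. The median was 0.24, with 29 members above 0. Cdc45 and Pcna were higher and Gins4 and Ccne1 lower in ND 3M without overlap, 4 of 41, where 24.2% of all genes did not overlap. Ccne1 stood at -2.76, -2.89 and -3.69 in ND 3M, against -1.24, -1.24 and -1.10 in ND 4d, a difference of -1.92 (95% interval -3.33 to -0.52, adjusted p 0.347). Cdt1 stood at 0.81, 0.62 and 1.43 in ND 3M, against 0.66, -0.65 and -1.45 in ND 4d, and Dnmt1 at 0.39, 0.63 and 1.70 in ND 3M, against 0.63, -1.77 and -0.10 in ND 4d. The 2 ageing comparisons and this one share the ND arrays. Of these 3 groups Ccne1 was lowest in ND 3M, next in Aged and highest in ND 4d.

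In anagen each condition had 1 array, so diet and age give values with no test, and in each pair given here the 2 arrays lay on different slides. Between HFD 3M and ND 3M anagen, 33 of 41 replication genes were lower in HFD 3M, with a median of -0.62, against 0.44 over all genes. The lowest difference was -5.50 for Pola2 and the highest 1.79 for Cdc45. Between HFD 4d and ND 4d anagen 23 were higher and 18 lower in HFD 4d, with a median of 0.03, against -0.09 over all genes. In Aged anagen 35 were lower than in ND 3M anagen and 34 lower than in ND 4d anagen, with medians of -0.66 and -0.50, against 0.26 and -0.06 over all genes. The scores of the arrays were 1.13 for Aged, 1.13 for HFD 3M, 1.81 for ND 3M, 1.86 for HFD 4d and 1.91 for ND 4d anagen.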

How the data were processed

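Mouse hair follicle stem cell RNA was labelled with Cy3 and hybridised to Agilent 1-colour arrays, per the labels' protocols. Spot intensity values were extracted and background-corrected by the authors with Agilent Feature Extraction 10.7.1.1, per the submitters' processing notes. The deposited series table holds a linear signal that equals each array's processed intensity over its 75th percentile, and it was used as an alternative. The labels used here do not state how the cells were obtained.

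From the scanner values, the processed intensity deposited by the authors was averaged over a probe's spots, without outlier spots. The log2 of this mean was taken, and the array's 75th percentile of these log2 values was subtracted. Probes well above background on all 3 arrays of a telogen group or on 3 of 5 anagen arrays were kept, 43395 of 56605. Of all probes, 32994 matched 1 RefSeq symbol by accession and 23611 matched none. A gene took its brightest tested probe. limma 3.58.1 in R 4.3.3 was fitted to 15 telogen arrays by group, or to 20 arrays with condition and phase, with two-sided tests and Benjamini-Hochberg adjustment over 18727 genes. The code was tested on simulated data. No precision beyond the number of arrays can be given.

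The members and lists were chosen with earlier results of these data known. All 41 members are named. For up to 12 called members with the largest anagen difference of 1 sign in all 5 conditions, each anagen value is given. Their telogen arrays are summarised by the lowest, median and highest, and a figure shows every array. Telogen array values, for some genes in part, are given for the 3 smallest p in each telogen comparison. The same holds for the 3 largest and 3 smallest telogen spreads. From other lists up to 4 genes with the smallest p are named, with 7 set key genes. Alternatives were background correction, scaling, probe filters, probe choice, blocks, array weights and leaving out each array.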

Additional observations from a re-analysis of the deposited data

Results flagged for a closer look

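In 3 genes the anagen array of 1 condition lay below its own telogen arrays while anagen arrays of other conditions lay above theirs. Pola2 differed by -1.50 between anagen and telogen in HFD 3M, against a highest value of 4.68 in ND 3M. Pole differed by -0.81 in HFD 3M, against a highest value of 3.36 in ND 3M. Ccne1 differed by -1.15 in HFD 4d, against a highest value of 1.77 in ND 3M. These differences between conditions were not tested, since each condition had 1 anagen array. HFD 3M and HFD 4d are also the 2 conditions whose anagen array lay on another slide and scan session than their telogen arrays, so phase and slide cannot be told apart there, and Pola2 was not well above background on the HFD 3M anagen array. No anagen value of the 41 genes stood apart by Dixon's test at 5 arrays, where chance alone would mark about 1 in 20.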

How the results depend on the processing

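No called gene among the 41 changed sign under the alternatives run. The members' median in telogen, from -0.13 to 0.24 over the 7 comparisons and without a test, changed sign in each of them under at least 1 alternative or left-out array. In anagen against telogen, genes called were 2364 with array weights, where Gins3 was called lower (1 member), and 677 with slide as a block, where 6 members were called higher. Leaving out 1 array gave 555 to 2056 genes, 7 to 26 members higher and medians of 1.44 to 1.74. The median over all genes was -0.16, and 0.06 with median scaling, and the members' median ran from 1.33 to 1.81 over the scalings. In telogen 0 members were called under any of these alternatives. Genes called in HFD 3M against ND 3M were 1 with quantile normalization and 1 with median scaling, in HFD 4d against ND 4d 1 with only the arrays compared, and in the diet by duration test 1 with median scaling and 1 with only the arrays compared. For Aged against ND 3M they were 2 with normexp, 0 with only probes well above background on all arrays, 20 with array weights, 5 with slide block, 7 with replicate block and 0 with only the arrays compared. For Aged against ND 4d they were 3 with normexp, 12 with quantile normalization, 0 with the strict probe filter, 1 with slide block and 0 with only the arrays compared. For ND 3M against ND 4d they were 30 with array weights, 7 with slide block, 0 with replicate block and 0 with only the arrays compared. Leaving out 1 array gave, for genes called and the members' median, 0 to 1 and -0.15 to 0.41 in HFD 3M against ND 3M, 0 to 1 and -0.28 to 0.02 in HFD 4d against ND 4d, 0 to 2 and -0.18 to 0.10 over both durations, 0 to 1 and -0.03 to 0.57 in diet by duration, 5 to 24 and -0.61 to 0.16 in Aged against ND 3M, 4 to 6 and -0.26 to 0.46 in Aged against ND 4d, and 0 to 4 and 0.10 to 0.48 in ND 3M against ND 4d. The cause was not tested. Over all genes, same-numbered telogen arrays did not deviate together (mean correlation -0.0018, range -0.139 to 0.0586, and 5 of 15 closest to their own number). These correlations cannot settle whether the numbers pair the samples. The replicate block called 0 members.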

Other observations

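Telogen replicates 1, 2 and 3 lay in slide columns 2, 3 and 4. In the HFD 3M, ND 3M, HFD 4d and ND 4d groups replicate 2 had the lowest median deviation of the replication genes, at -0.09, -0.28, -0.55 and -0.21, whereas in Aged replicate 2 had the highest, at 0.86.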
